A study of Homo sapiens with 24 samples.

Results

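Described here is the response of K562 cells to siGATA1-2, an siRNA against GATA1 given at 6.25 nM. The comparison uses 12 of the 24 libraries of the study. They are the 4 libraries labelled siGATA1-2 (replicates 1 to 4), 4 labelled siNC-1 and 4 labelled siNC-2 (replicates 5 to 8 of each), taken by those column names from the authors' count table. siGATA1-2 is the Ambion Silencer Select siRNA s5594, and siNC-1 and siNC-2 are non-targeting control siRNAs of the same product line, all at 6.25 nM. The other 12 libraries hold a different GATA1 siRNA, siGATA1-1, and the same controls at 25 nM. In every group K562 cells, an established erythroleukemia line that carries no other stated modification, were transfected with 1 siRNA, kept for 48 hours, and profiled by BRB-seq, a 3' RNA-seq method with early pooling of barcoded samples. All groups are a single line, and no library without any siRNA was used.

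GATA1 is a zinc-finger transcription factor that binds GATA motifs and is required for the development of red cells, megakaryocytes, eosinophils and mast cells. In erythroid cells it works with partners such as TAL1, LMO2, LDB1 and FOG1 (ZFPM1), and activates the globin genes, genes of heme synthesis and iron handling, and the erythroid factor KLF1. It is also known for holding down genes of other blood lineages, and for mutual antagonism with the myeloid factor PU.1, the product of SPI1. K562 cells make embryonic and fetal globins, and adult beta-globin poorly.

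The libraries were shallow. Totals were 102225 to 226888 counts in the siGATA1-2 libraries and 135533 to 293901 in the controls. Levels are given in CPM, counts divided by a library size that edgeR's trimmed mean of M-values had scaled, and 3 counts corresponded to 10.8 to 31.3 CPM. Replicate 3 of siGATA1-2 had the lowest total and stood apart from the rest on the first principal component of log2 CPM (21.4% of the variance, a score of -80.7 against -12.4 to 14.6 in the other libraries). Replicate 4 had the highest score on the second (53.9). Both were kept, and results that rest on either are given without it. Markers of the labelled line were checked. HBG2 stood at 10423 to 12847 CPM in the controls, and HBZ, GATA1 and TFRC were detected in all 12 libraries.

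GATA1, the target, fell in all 4 siGATA1-2 libraries. Its level was 218, 261, 333 and 165 CPM in replicates 1 to 4, against a lowest, median and highest control of 478, 533 and 630 CPM. The highest siGATA1-2 library was thus under the lowest control. The mean went from 543 ± 47.2 CPM (SD, n = 8) to 244 ± 71.4 CPM (SD, n = 4), and the fitted level fell by 56.2% (95% interval -65.6% to -44.2%). On the log2 scale the change was -1.19 with an SE of 0.18 and an adjusted p of 5.53e-07. Here and below, a log2 fold change sets siGATA1-2 against the 2 control siRNAs weighted equally, and adjusted p-values come from edgeR's quasi-likelihood test with Benjamini-Hochberg adjustment over 6738 genes with enough counts. Over the 12 libraries, an exact permutation test (two-sided) gave p = 0.00202, the smallest that the 495 splits allow. Leaving out each library in turn gave log2 fold changes from -1.33 (without siGATA1-2 replicate 3) to -1.05 (without siGATA1-2 replicate 4).

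Across all tested genes, 118 were higher with siGATA1-2 (1.75% of 6738) and 86 were lower (1.28%) at an adjusted p under 0.05, together 3.03% of genes. Genes past that threshold are referred to as called. Every count of called members of a list below is to be read beside these shares, 1.75% higher and 1.28% lower. Changes were moderate in size. The median log2 fold change was 1.23 for genes called higher and -1.13 for genes called lower, against -0.01 over all tested genes with an SD of 0.57. More than 2-fold changes were fitted for 84 of the genes called higher and 53 of those called lower, and more than 4-fold changes for 18 and 9. In 54 of the genes called higher and 44 of those called lower, the 4 siGATA1-2 libraries did not overlap the 8 controls (over all tested genes, 1.29% lay wholly higher and 0.994% wholly lower). The genes called lower made up 5.83% of all CPM in the controls and 3.09% with siGATA1-2, and those called higher went from 2.65% to 4.68%. Called genes were chosen by their change in these same libraries. The directions of these shifts were therefore set in advance, and their sizes and the medians of called genes may be overstated.

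**Figure D1:**
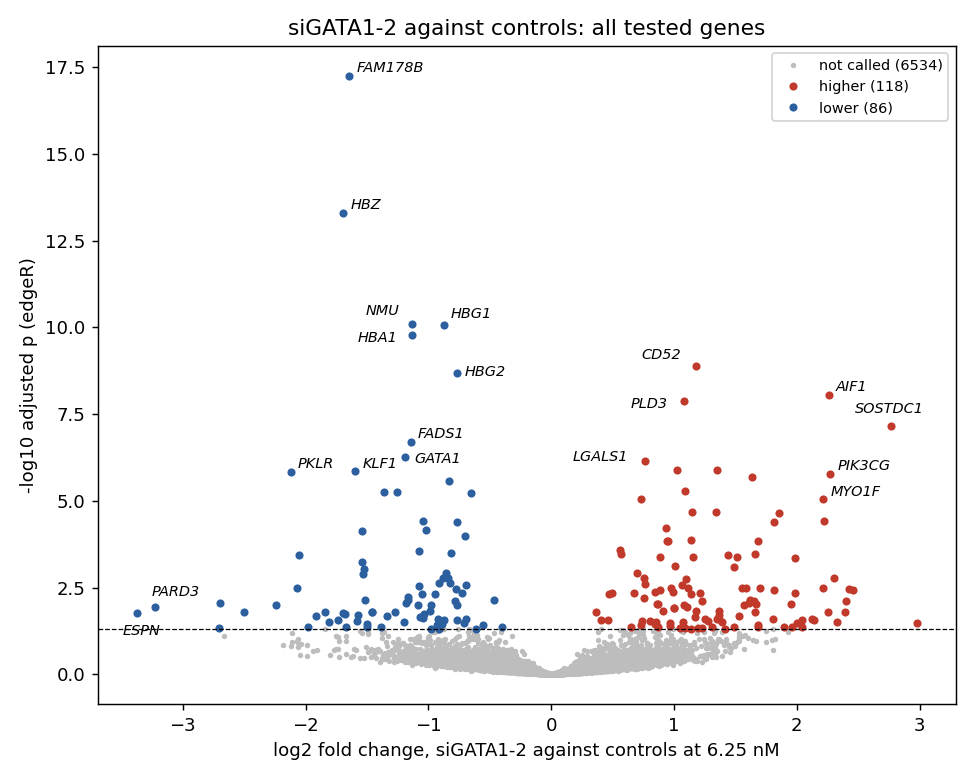
Log2 fold change of siGATA1-2 against controls (x axis) and -log10 of the adjusted p from edgeR (y axis) for 6738 genes; red points are the 118 called higher, blue the 86 called lower, grey the rest, and the dashed line is an adjusted p of 0.05. FAM178B and HBZ have the lowest adjusted p, and ESPN and PARD3 the most negative fold changes.

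The 2 control siRNAs at this dose were compared in the same way. edgeR called 0 genes between siNC-1 and siNC-2 at 6.25 nM, with 203 genes (3.01%) at an unadjusted p under 0.05, and DESeq2 and limma voom also called 0. For siGATA1-2, 1066 genes (15.8%) had an unadjusted p under 0.05. Abundant genes had smaller SEs and more calls: among the 1685 genes with the highest mean CPM, 50 were called higher and 55 lower at a median SE of 0.22, and among the 1685 with the lowest, 17 and 6 at a median SE of 0.56. A gene not called may therefore have changed by an amount not detectable at this depth. Whether precision or the kind of genes at each level accounts for the numbers called was not tested. Without siGATA1-2 replicate 4 the counts were 63 higher and 55 lower, and without siGATA1-2 replicate 2 the number called lower was 156. With 1 control siRNA in place of both, fewer genes were called. Only genes described below that the naming rule picked were followed in this way. Of these, the calls of PPOX, SLC25A39, CISH, PIM2, LGALS12, TMSB10, VIM, HPGD, EVI2B, ZBED5-AS1, ESPN, NIP7, PRR3, HES1, POLR1C, TXNIP, PAICS, ATIC, MRPL36, MRPL38, IFITM1, B2M, APOC1, HSPA9 and CTSC were lost against siNC-1 alone. Those of LGALS12, ARPC2, VIM, EPS8L2, ATG16L2, LOC101928525, PTPN22, PRR3, ORC1, TXNIP, ATP5G1, IFITM1 and APOC1 were lost against siNC-2 alone. Not called in limma voom were LGALS12, TMSB10, LOC101928525, VAMP4, HES1, ORC1, TXNIP, ATIC, MRPL36, MRPL38, ATP5G1 and HSPA9. DESeq2 did not call APOC1. With only the 12 libraries at 6.25 nM in the fit, EVI2B, ORC1, POLR1C, MRPL36, MRPL38 and ATP5G1 were lost. Against all 16 controls, LGALS12, PIM2, TMSB10, HES1, MRPL36 and IFITM1 were lost. Without a filter on low counts, LGALS12, VIM, PRR3, POLR1C, MRPL36, IFITM1 and APOC1 were lost. HSPA9, IFITM1 and APOC1 were each lost under another scaling. Only 41 of the 118 and 33 of the 86 were called in each of the 12 fits that left out 1 library.

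Among the erythroid transcription factors and their cofactors, KLF1 fell and the other 20 tested members of the list were not called (1 of 21 against 1.28% of all genes called lower, list median -0.14). KLF1, which activates adult globin and many red cell genes, had 64.9, 155, 219 and 34.1 CPM in siGATA1-2 replicates 1 to 4, against 247, 301 and 419 CPM for the lowest, median and highest control. No siGATA1-2 library reached the controls, and the order of the 4 libraries by KLF1 was their order by GATA1. The log2 fold change was -1.59 (SE 0.25, adjusted p = 1.42e-06). Partners of GATA1 stayed short of the threshold, with fitted changes of -0.66 (SE 0.35) for TAL1, -0.75 (SE 0.32) for LDB1, 0.12 for LMO2 and 0.08 for ZFPM1. Of 9 tested genes from a list of known targets of repression by GATA1, 1 was called higher, SPI1, and GATA2 (-0.43), KIT (-0.97), MYB (-0.16) and MYC (-0.69) were not called. The median of that list was 0.07.

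The embryonic and fetal globin genes fell together. Of the alpha-like genes, 3 of 4 tested were called lower (list median -1.25), and of the beta-like genes 3 of 4 (list median -0.71), against 1.28% of all genes. HBZ, the embryonic alpha-like globin, had 500, 963, 604 and 454 CPM with siGATA1-2, against 1563, 2128 and 2426 CPM for the lowest, median and highest control. Replicate 2 kept the highest level of the 4, and all were below every control. HBZ fell by 69% (log2 fold change -1.69, SE 0.15, adjusted p = 5.09e-14).

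HBA1 and HBA2 are near-identical copies whose reads a counter can split in different ways, so their sum is the safer value. HBA1 had 523, 794, 636 and 505 CPM against controls at 1187 to 1659 CPM, and HBA2 had 125, 169, 167 and 90.8 CPM against 236 to 472 CPM. Neither gene overlapped between groups. The summed counts gave a log2 fold change of -1.17 (SE 0.13, adjusted p = 1.18e-11). HBQ1, the theta globin, was not called (adjusted p = 0.137).

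The fetal gamma-globins HBG1 and HBG2, another near-identical pair, were the most abundant globins. HBG1 had 4493, 5715, 4710 and 4081 CPM with siGATA1-2, with a lowest, median and highest control of 7778, 8609 and 9996 CPM. HBG2 had 6105, 8372, 7086 and 5675 CPM, with controls at 10423, 11471 and 12847 CPM. Again replicate 2 was the highest of the 4 for both and the groups did not overlap. Their sum changed by -0.81 (SE 0.09, adjusted p = 6.22e-11). HBE1, the embryonic beta-like globin, went from 3170 ± 292 CPM (SD, n = 8) to 2012 ± 271 CPM (SD, n = 4), a log2 fold change of -0.65 (adjusted p = 5.93e-06), while HBD gave 0.05 with an SE of 0.47. Summed over each list, alpha-like globin counts were at most 1965 CPM with siGATA1-2 and at least 3268 CPM in the controls, and beta-like counts at most 16464 and at least 21264 CPM. The numbers of globin genes called, 3 and 3, were the same in all 23 alternative fits.

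**Figure D2:**
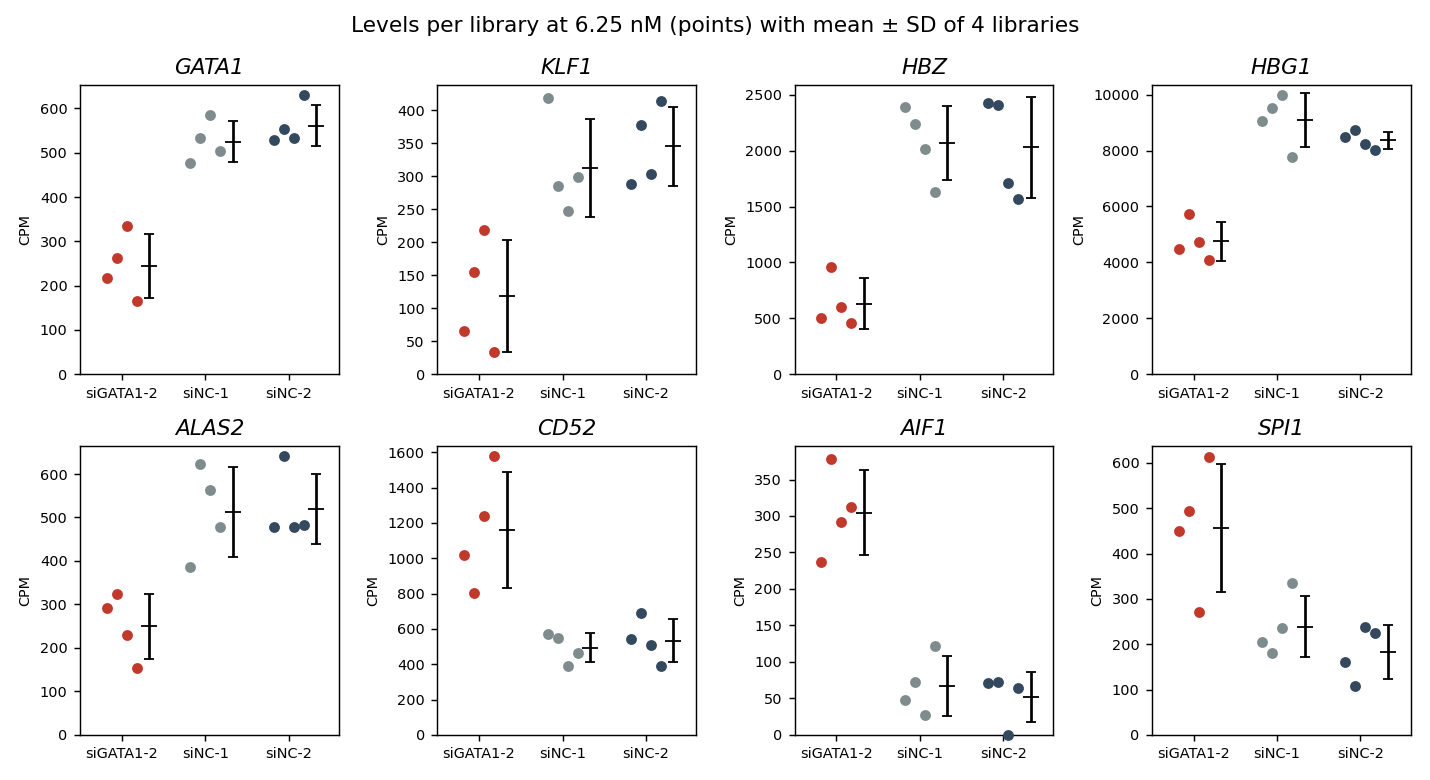
Level of 8 genes in CPM (y axis, linear from 0) in each of the 12 libraries by siRNA (x axis); points are libraries, and the bar beside them is the mean ± SD of 4. GATA1, KLF1, HBZ, HBG1 and ALAS2 are lower with siGATA1-2 in every library, CD52 and AIF1 are higher in every library, and 1 siGATA1-2 library of SPI1 (271 CPM) lies within the range of the controls, which reach 335 CPM.

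Genes of heme synthesis fell in part. Of 9 tested enzymes, 3 were called lower, against 1.28% of all genes (list median -0.64). ALAS2, the erythroid enzyme of the first and rate-limiting step, had 292, 324, 229 and 153 CPM against controls at 387, 480 and 641 CPM (lowest, median and highest), with no overlap. Its log2 fold change was -1.02 (SE 0.19, adjusted p = 7.03e-05), and ALAS1, the housekeeping form, gave 0.24 and was not called. PPOX, protoporphyrinogen oxidase, changed by -1.17 (adjusted p = 0.00741). PPOX was not called with siNC-1 alone as the control. Members that were not called ranged from -0.82 for UROS to 0.39 for ALAD.

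A list of mitochondrial genes tied to heme and iron handling, not all of them carriers of either, had 3 of 7 tested members called lower. The share over all genes was 1.28% (list median -0.47). SLC25A37, mitoferrin-1, the erythroid iron importer, had 885, 857, 521 and 755 CPM against controls at 1089, 1288 and 1623 CPM, with no overlap and a log2 fold change of -0.77 (SE 0.14, adjusted p = 4.08e-05). ABCB10, an inner-membrane transporter that works with mitoferrin-1, changed by -2.07 (adjusted p = 0.00327), and SLC25A39, a mitochondrial carrier of the same family as mitoferrin, by -0.98 (adjusted p = 0.0103). These last 2 were not called without siGATA1-2 replicate 4, which left 1 member of the list, and SLC25A39 was also not called without siGATA1-2 replicate 3. ABCB10 stood at -2.89 without siGATA1-2 replicate 2.

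TFRC, the transferrin receptor through which erythroid cells take up iron, was the 1 gene called among 10 of iron uptake and storage. It had 287, 368, 302 and 153 CPM with siGATA1-2 and 354 to 730 CPM in the controls, a log2 fold change of -1.04 (SE 0.19, adjusted p = 3.81e-05). Replicate 2 lay just inside the range of the controls. BLVRB, biliverdin reductase B, went from 1589 ± 146 CPM (SD, n = 8) to 881 ± 214 CPM (SD, n = 4) with no overlap, and its log2 fold change was -0.83 (adjusted p = 2.67e-06).

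Genes of the red cell membrane and blood groups gave a different count. edgeR called 0 of 24 tested members (at an unadjusted p under 0.05, 3 were higher and 1 lower, and DESeq2 and limma voom each called 1 higher). Their summed level was 4376 to 4785 CPM with siGATA1-2 and 4188 to 4699 CPM in the controls. The member with the highest level, RHAG, a subunit of the Rh complex, had 820, 721, 802 and 829 CPM against controls at 462 to 899 CPM (log2 fold change 0.20, adjusted p = 0.514). The median log2 fold change of the list was -0.04, against -0.01 over all tested genes.

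FAM178B had the lowest adjusted p of all genes. It stood at 737, 978, 750 and 460 CPM with siGATA1-2 and at 1875, 2275 and 2662 CPM in the lowest, median and highest control, a clear separation. Its log2 fold change was -1.65 (SE 0.13, adjusted p = 5.66e-18). NMU, which encodes the neuropeptide neuromedin U, had 1255, 1341, 865 and 851 CPM against 2037 to 2738 CPM in the controls, also without overlap (log2 fold change -1.13, adjusted p = 7.86e-11). Of 19 tested genes of glycolysis 2 were called lower, against 1.28% of all genes, and both are used by red cells. PKLR, the liver and red cell pyruvate kinase, had 27.8, 82.3, 31.3 and 17 CPM against 135 to 258 CPM (log2 fold change -2.12, SE 0.33, adjusted p = 1.43e-06), and stood at -2.86 without siGATA1-2 replicate 2. HK1, hexokinase 1, changed by -0.78 (adjusted p = 0.00343), a call that was lost without siGATA1-2 replicate 4, and the median of the list was -0.09.

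CISH and PIM2 were called higher, 2 of the 11 tested genes of erythropoietin receptor signalling (1.75% of all genes were). CISH, an inhibitor of STAT5 signalling, had 273, 227, 271 and 272 CPM against controls at 63.7, 112 and 204 CPM (lowest, median and highest), so that the groups did not overlap. Its log2 fold change was 1.10 (SE 0.24, adjusted p = 0.00181). PIM2, a kinase whose gene lies near GATA1 on the X chromosome, changed by 0.75 (adjusted p = 0.00616), and its call was lost without siGATA1-2 replicate 1. With siNC-1 alone as the control neither gene was called (adjusted p = 0.222 for CISH and 0.12 for PIM2), which left 0 of the 11, and PIM2 was also lost with all 16 controls. SOCS1 (0.35), SOCS2 (0.06), PIM1 (0.02) and SH2B3 (0.08), other genes of the pathway, were not called. EPOR, the receptor, had a fitted change of -0.59 that was not called. The median of the pathway list was 0.06.

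Promoters of several called genes hold AGATAA or TGATAA, 2 forms of the GATA motif that GATA1 binds. RefSeq promoter sequences (GRCh38.p14) were searched over the 250 bases before each listed start for AGATAA or TGATAA on both strands. A match was found for 11 of the 60 genes called lower that had an entry (18.3%), 11 of 98 called higher (11.2%), 512 of 5233 genes tested and not called (9.78%), and 4770 of the 27305 genes in the promoter table itself (17.5%). The windows below are each 80 bases and read along the strand of the gene. Only the 11 genes with a match among the called genes picked by the naming rule were ranked, not all called genes with a match. Those with the lowest adjusted p are shown, 4 that fell and 2 that rose. The capitals mark the match (TTATCA and TTATCT are the motifs on the opposite strand). FAM178B is shown at chr2:96895236-96895315 (minus strand), with the match 110 bases before the start, KLF1 at chr19:12887225-12887304 (minus), 66 bases before, PKLR at chr1:155301556-155301635 (minus), 160 bases before, and ALAS2 at chrX:55031062-55031141 (minus), 127 bases before. AIF1 is shown at chr6:31615001-31615080 (plus), 196 bases before the start, and PIK3CG at chr7:106865383-106865462 (plus), 59 bases before.
FAM178B: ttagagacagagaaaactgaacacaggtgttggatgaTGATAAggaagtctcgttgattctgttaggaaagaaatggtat
KLF1: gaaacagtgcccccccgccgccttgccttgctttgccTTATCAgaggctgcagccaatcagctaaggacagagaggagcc
PKLR: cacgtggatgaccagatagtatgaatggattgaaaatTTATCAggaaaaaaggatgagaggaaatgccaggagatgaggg
ALAS2: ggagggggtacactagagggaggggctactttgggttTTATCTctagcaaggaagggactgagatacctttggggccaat
AIF1: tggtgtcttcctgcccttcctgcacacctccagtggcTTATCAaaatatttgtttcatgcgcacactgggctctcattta
PIK3CG: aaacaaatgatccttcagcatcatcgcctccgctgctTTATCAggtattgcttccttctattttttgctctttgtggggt
A match is a string of letters in a window. Other GATA strings, such as the agatag in the PKLR window, were neither searched nor marked, so the shares cover these 2 forms only. No binding was measured in these libraries, and the deposited counts were made on hg19, so the coordinates belong to the RefSeq table alone.

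Markers of myeloid cells that could be tested mostly rose. Of 32 listed, 12 had enough counts to be tested, and 5 of these were called higher, against 1.75% of all genes. The list median was 0.87, and 11 of the 12 fitted changes were positive. CEBPB, at -0.34 and not called, was the exception. Their summed level was 3044 to 4268 CPM with siGATA1-2 and 1788 to 2420 CPM in the controls. In bulk libraries a larger share of cells with a myeloid program and more such RNA per cell cannot be told apart.

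AIF1, a calcium-binding protein of macrophages, had the lowest adjusted p of the 5. It was at 236, 377, 292 and 312 CPM with siGATA1-2 and at 0, 67.8 and 122 CPM in the lowest, median and highest control. Every siGATA1-2 library lay above every control (log2 fold change 2.26, SE 0.29, adjusted p = 8.86e-09). SPI1, which encodes the myeloid factor PU.1, had 449, 494, 271 and 613 CPM against controls at 109, 214 and 335 CPM. Replicate 3 fell within the range of the controls and the others lay above it (log2 fold change 1.15, SE 0.20, adjusted p = 2.15e-05).

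TYROBP, a signalling adaptor of myeloid and natural killer cells, changed by 1.11 (adjusted p = 0.00317) and LAPTM5, a lysosomal membrane protein of blood cells, by 0.70 (adjusted p = 0.00123). Both overlapped the controls, TYROBP at 155 to 295 CPM against 75.2 to 163 CPM and LAPTM5 at 532 to 1136 CPM against 439 to 669 CPM. AIF1 was the 1 tested member of the list with no overlap. The fifth member called, SIGLEC6, a sialic acid receptor, is named here after its values were seen and changed by 1.70 (adjusted p = 0.00327). CD33, another such receptor, had a fitted change of 0.98 (adjusted p = 0.122) and LYZ, lysozyme, 0.75 (adjusted p = 0.0508), and neither was called. Of the 20 members not tested, CSF2RA, MPO, ELANE, CD14, CORO1A, SIGLEC7 and SIGLEC9 had 0 counts in all 12 libraries. Other untested members went both ways. LST1 had 38 counts in the 4 siGATA1-2 libraries and 8 in the 8 controls, and ITGAX 21 and 11, while CEBPE had 0 and 8, and MNDA 1 and 9. Over all alternative fits, 4 to 6 members of this list were called higher.

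Markers of other lineages were tested in small numbers. Of 17 megakaryocyte markers only 2 were tested and neither was called, with summed levels of 83.4 to 144 CPM with siGATA1-2 and 69.8 to 191 CPM in the controls, and GP1BA, GP1BB, GP9, PF4 and FLI1 had 0 counts. Markers of mast cells, basophils and eosinophils summed to 204 to 218 CPM against 231 to 430 CPM, so that every siGATA1-2 library lay below every control. Neither of the 2 tested members was called (median -0.76), and CPA3, TPSAB1 and RNASE2 were at 0. Lymphoid markers summed to 479 to 726 CPM against 317 to 631 CPM, and neither of 2 tested members was called. The highest of them was CD3D, at 310 to 396 CPM against 204 to 481 CPM, and CD79A, CD2, LCK, GNLY and IL7R had 0 counts. Among epithelial and fibroblast markers 1 of 4 was called, EPCAM, an epithelial adhesion molecule, at 64.9, 82.3, 41.7 and 17 CPM against 118 to 231 CPM (log2 fold change -1.53, SE 0.33, adjusted p = 0.00127).

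Among the genes called higher, CD52 and PLD3 had 2 of the 3 lowest adjusted p-values. CD52, a small glycoprotein on the surface of white blood cells, had 1019, 803, 1240 and 1578 CPM with siGATA1-2 and 391, 525 and 687 CPM in the lowest, median and highest control. PLD3, a lysosomal nuclease, had 1056, 813, 1084 and 1294 CPM against controls at 406 to 635 CPM. For both, replicate 2 was the lowest of the 4 siGATA1-2 libraries and still lay above every control. CD52 rose 2.26-fold (log2 fold change 1.18, SE 0.14, adjusted p = 1.31e-09) and PLD3 rose 2.12-fold (1.08, SE 0.14, adjusted p = 1.29e-08).

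S100 proteins, galectins and annexins had 4 of 14 tested members called higher, against 1.75% of all genes (list median 0.26). LGALS1, galectin-1, a secreted sugar-binding protein, went from 1187 ± 96.8 CPM (SD, n = 8) to 2014 ± 191 CPM (SD, n = 4), with no overlap and a log2 fold change of 0.76 (SE 0.11, adjusted p = 6.98e-07). S100A13 changed by 0.93 (adjusted p = 6.18e-05) and S100A4 by 1.49 (adjusted p = 0.000798). LGALS12 changed by 2.00 (adjusted p = 0.0327) on few counts. S100A4 and LGALS12 were not called without siGATA1-2 replicate 4, which left 2 of the 4, and LGALS12 was also lost without siGATA1-2 replicates 1 or 3, siNC-1 replicates 5, 6 or 7, or siNC-2 replicate 8, and stood at 2.69 without siNC-1 replicate 8.

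Actin cytoskeleton and adhesion genes had 6 of 31 tested members called higher, against 1.75% of all genes (list median 0.29, 22 of 31 positive). GSN, gelsolin, which severs actin filaments, had 134, 174, 62.5 and 301 CPM with siGATA1-2 and 35.5 to 75.6 CPM in the controls. Replicate 4 was the highest and replicate 3 lay within the controls (log2 fold change 1.51, SE 0.31, adjusted p = 0.000413). ARPC1B and ARPC2, subunits of the Arp2/3 complex that nucleates branched actin, changed by 0.89 (adjusted p = 0.000413) and 0.87 (adjusted p = 0.0092). TMSB10, a thymosin that binds actin monomers, changed by 0.50 (adjusted p = 0.0045) and VIM, vimentin, by 0.36 (adjusted p = 0.0162). ARHGDIB, named after its values were seen, changed by 1.89 (adjusted p = 0.0427), on 36 counts with siGATA1-2 and 32 in the controls. It was called in 6 of the 12 fits that left out 1 library. The count rested on siGATA1-2 replicates 3 and 4: without replicate 4, 1 of the 6 was called, and without replicate 3, 3 were. ARPC1B kept its call when any 1 library was left out, and VIM was also lost without siGATA1-2 replicate 2.

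**Figure D3:**
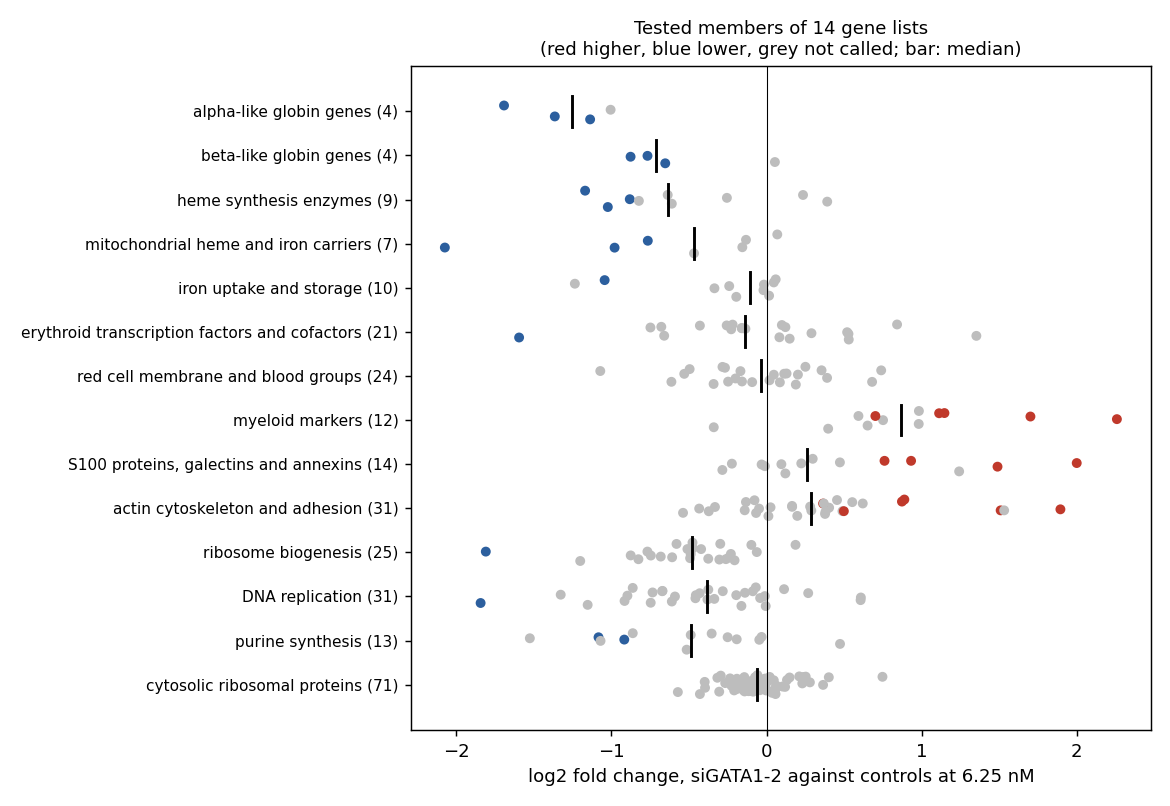
Log2 fold change of siGATA1-2 against controls (x axis) for each tested member of 14 gene lists (y axis, number of tested members in brackets); red points were called higher, blue called lower, grey not called, the black bar is the median of the list, and points are spread vertically within a list only to separate them. Globin genes lie mostly to the left of 0, myeloid markers mostly to the right, and cytosolic ribosomal protein genes around 0 with a median of -0.06.

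The largest rise among called genes with a mean of at least 5 counts was in SOSTDC1, a secreted antagonist of BMP and Wnt signalling. It had 78.8, 136, 135 and 278 CPM with siGATA1-2 and 0, 18.9 and 61.2 CPM in the lowest, median and highest control. The groups did not overlap and the fitted level was 6.82-fold higher (log2 fold change 2.77, SE 0.38, adjusted p = 6.98e-08). PIK3CG, the gamma catalytic subunit of PI3-kinase found in blood cells, had 195, 96.8, 167 and 216 CPM against controls at 0 to 63.1 CPM (log2 fold change 2.27, SE 0.35, adjusted p = 1.65e-06). MYO1F, a class I myosin of white blood cells, had 181, 96.8, 125 and 193 CPM against 0 to 77.5 CPM (log2 fold change 2.21, SE 0.37, adjusted p = 8.95e-06). In both, replicate 2 was the lowest of the siGATA1-2 libraries and lay above all controls.

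The remaining genes of the 12 largest rises had fewer counts. The filter on counts can be passed through only the libraries where a gene is high. Genes near 0 in 1 group can therefore enter a ranking by size of change, and how far this shaped it was not tested. The highest control was 41.3 CPM for EPS8L2 and 30.4 CPM for ATG16L2. HPGD, which inactivates prostaglandins, had 88, 48.4, 52.1 and 187 CPM against 5.17 to 48.4 CPM in the controls and changed by 2.30 (adjusted p = 0.00172). EPS8L2, a relative of the actin regulator EPS8, changed by 2.46 (adjusted p = 0.0037), and ATG16L2, a relative of the autophagy protein ATG16L1, by 2.40 (adjusted p = 0.00755). LOC101928525 changed by 2.39 (adjusted p = 0.0161) with 159 CPM in replicate 4 and 9.26 to 41.7 CPM in the others. The calls of HPGD, ATG16L2 and LOC101928525 were lost without siGATA1-2 replicate 4, and LOC101928525 then stood at 1.20. With siNC-2 alone as the control EPS8L2 was not called (adjusted p = 0.18), nor were ATG16L2 and LOC101928525, and with siNC-1 alone HPGD was not called. ATG16L2 stood at 3.40 without siNC-1 replicate 6.

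LTBP3, which binds latent TGF-beta, had 97.3, 53.2, 375 and 108 CPM with siGATA1-2 and 5.37 to 78.9 CPM in the controls. Replicate 3 was far above the rest, and the log2 fold change of 2.22 (adjusted p = 3.74e-05) became 1.47 without it and remained called. EVI2B, a membrane protein of white blood cells, changed by 2.14 (adjusted p = 0.0269) and PTPN22, a tyrosine phosphatase of immune cells, by 2.12 (adjusted p = 0.0255). EVI2B was not called without siGATA1-2 replicate 1 or siNC-1 replicate 6, and PTPN22 was not called without siGATA1-2 replicates 1, 2 or 3 or siNC-1 replicate 7. ZBED5-AS1, an antisense transcript, changed by 2.21 (adjusted p = 0.00318), and without knowledge of strand its reads cannot be told apart from those of its partner. It was not called with siNC-1 alone as the control (adjusted p = 0.0705). The same limit touches EVI2B, whose gene lies inside another.

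The largest falls were in genes of low level. ESPN, which bundles actin, had 2 counts over the 4 siGATA1-2 libraries and 59 over the 8 controls, a rate of 8.06% of the controls (95% interval for counting error only, 0.954% to 30.4%). PARD3, a cell polarity protein, had 3 against 75 counts, a rate of 9.51% (1.92% to 28.9%). ESPN had its 2 counts in replicate 4 and PARD3 its 3 in replicate 2, so that without that library no siGATA1-2 count of the gene was left. Their fitted changes of -3.37 (adjusted p = 0.0173) and -3.22 (adjusted p = 0.0117) were not called without siGATA1-2 replicates 1 or 2 or siNC-1 replicate 7 for ESPN, and without siGATA1-2 replicates 1 or 4 for PARD3.

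VAMP4, a SNARE protein of the trans-Golgi, had 4.63, 14.5, 10.4 and 0 CPM with siGATA1-2 and 21.6 to 80.5 CPM in the controls (log2 fold change -2.70, adjusted p = 0.00906). NIP7, a factor for the large ribosomal subunit, changed by -2.50 (adjusted p = 0.0162) and TMEM56, a membrane protein, by -2.24 (adjusted p = 0.0103). All 3 lost their call without siGATA1-2 replicate 4. VAMP4 and TMEM56 also lost it without siGATA1-2 replicate 1, and NIP7 without siGATA1-2 replicate 3 or siNC-1 replicate 8. Without siGATA1-2 replicate 2, TMEM56 stood at -3.93 and VAMP4 at -3.43. SLC7A8, an amino acid transporter, had 23.2, 77.4, 10.4 and 0 CPM against 75.2 to 178 CPM. Its log2 fold change of -2.05 (SE 0.41, adjusted p = 0.000364) was -3.37 without siGATA1-2 replicate 2, the library that lay within the controls.

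The other 4 of the 12 largest falls were PRR3 (-1.98, adjusted p = 0.0427), HES1, a transcriptional repressor of the Notch pathway (-1.92, adjusted p = 0.0204), ORC1, the largest subunit of the origin recognition complex (-1.84, adjusted p = 0.0162), and POLR1C, a subunit shared by RNA polymerases I and III (-1.81, adjusted p = 0.032). None of the 4 was called without siGATA1-2 replicate 1 or without siGATA1-2 replicate 4. PRR3, HES1 and POLR1C were also lost without siGATA1-2 replicate 3, PRR3 without siNC-1 replicate 8 or siNC-2 replicate 8, HES1 without siNC-2 replicate 7 and POLR1C without siNC-1 replicate 7. In PRR3, HES1 and POLR1C replicate 2 had the highest level of the siGATA1-2 libraries, at 38.7, 48.4 and 43.6 CPM, and without it their fitted changes were -4.35, -3.15 and -2.93.

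Few members were called in the lists of cell cycle, redox and metabolic genes. CDKN1C, the CDK inhibitor p57, was the 1 gene called among 12 of the G1 cyclins, CDKs and their inhibitors. It had 523, 537, 531 and 579 CPM with siGATA1-2 and 183, 302 and 335 CPM in the lowest, median and highest control, a narrow group well above the other (log2 fold change 0.95, SE 0.18, adjusted p = 0.000139). GLUL, glutamine synthetase, went from 1515 ± 125 CPM (SD, n = 8) to 2243 ± 309 CPM (SD, n = 4) with no overlap (log2 fold change 0.56, adjusted p = 0.000257). TXN, thioredoxin, had 246, 271, 219 and 250 CPM against 312 to 605 CPM (log2 fold change -0.84, adjusted p = 0.00162). TXNIP, which binds and inhibits thioredoxin, changed by 0.74 (adjusted p = 0.0298), a call lost without siGATA1-2 replicates 3 or 4, siNC-1 replicates 6 or 8 or siNC-2 replicate 5, with a value of 0.45 without siGATA1-2 replicate 4.

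FADS1, a fatty acid desaturase, was the 1 gene called of 28 in cholesterol and fatty acid synthesis. It had 296, 300, 386 and 267 CPM against 588, 651 and 796 CPM for the lowest, median and highest control, with no overlap (log2 fold change -1.14, SE 0.16, adjusted p = 1.97e-07). In purine synthesis 12 of 13 fitted changes were negative (list median -0.49) and 2 were called lower, against 1.28% of all genes. PAICS changed by -0.92 (adjusted p = 0.00234) and ATIC by -1.08 (adjusted p = 0.0103), each an enzyme of the de novo pathway. PAICS was not called without siGATA1-2 replicate 4, nor ATIC without siGATA1-2 replicates 1 or 3. PVT1, the long noncoding RNA beside MYC, had 171, 232, 93.8 and 221 CPM against 300 to 486 CPM (log2 fold change -1.08, SE 0.21, adjusted p = 0.000273), while MYC itself gave -0.69 (adjusted p = 0.107).

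In several large lists fitted changes leaned to 1 side while few members were called. In ribosome biogenesis 24 of 25 fitted changes were negative (median -0.48, 1 called), in DNA replication 27 of 31 (median -0.38, 1 called) and in mitosis 27 of 32 (median -0.18). In DNA replication DESeq2 called 2 lower and limma voom 0. edgeR, DESeq2 and limma voom each called 0 mitosis genes (3 lower at an unadjusted p under 0.05), and STMN1, stathmin, the member with the highest level, gave -0.18 (adjusted p = 0.585). Over all tested genes the median was -0.01, and it lay between -0.05 and 0.02 under the other scalings, with the medians of these 3 lists negative in each. Of 76 nuclear genes of the respiratory chain 2 were called lower, against 1.28% of all genes (median -0.16). One of them was CYCS, cytochrome c, at 32.4, 102, 31.3 and 45.4 CPM against 107 to 207 CPM (log2 fold change -1.53, SE 0.32, adjusted p = 0.000951), and it stood at -2.12 without siGATA1-2 replicate 2. The other was ATP5G1, a subunit of ATP synthase, at -1.28 (adjusted p = 0.0162), which was not called without siGATA1-2 replicates 3 or 4.

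edgeR called 0 of 71 cytosolic ribosomal protein genes (median -0.06), with 7 lower at an unadjusted p under 0.05 and 1 called lower by DESeq2 and by limma voom. All 3 tools called 0 of 33 proteasome subunits (median -0.12, 3 lower at an unadjusted p under 0.05). Of 73 mitochondrial ribosomal proteins 2 were called lower by edgeR, against 1.28% of all genes, and limma voom called 0. The 2 were MRPL36 (-1.50, adjusted p = 0.0361) and MRPL38 (-1.39, adjusted p = 0.0427), and both were lost without siGATA1-2 replicates 1, 3 or 4. MRPL36 was also lost without siNC-1 replicates 6 or 7 or siNC-2 replicate 6, and MRPL38 without siNC-1 replicates 5 or 7 or siNC-2 replicates 5 or 6. Without siGATA1-2 replicate 2, MRPL38 stood at -2.36. Among interferon-stimulated genes, which can answer to transfected RNA, 1 of 10 tested was called higher by edgeR and by limma voom, and 2 by DESeq2. The list median was 0.38, with 8 of 10 fitted changes positive. Summed levels were 2541 to 3314 CPM with siGATA1-2 and 1881 to 2577 CPM in the controls, which overlap. IFITM1 had 1556, 1287, 1803 and 1731 CPM against 1034 to 1391 CPM (log2 fold change 0.41, adjusted p = 0.0269), and was not called without siGATA1-2 replicates 1, 3 or 4, siNC-1 replicate 7 or siNC-2 replicate 6. IFIT1, MX2, OAS1, USP18 and HERC5 of that list had 0 counts in all 12 libraries. Of 8 tested genes of small RNA silencing edgeR and limma voom called 0. TNRC6B, a partner of Argonaute and the 1 member at an unadjusted p under 0.05, had a fitted change of 0.73 (adjusted p = 0.0684 in edgeR, 0.0307 in DESeq2, which called it).

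Some abundant genes changed little in size. CLIC1, a chloride channel protein, changed by 0.57 (adjusted p = 0.000337), B2M, beta-2 microglobulin, by 0.47 (adjusted p = 0.00485) and APOC1, an apolipoprotein, by -0.40 (adjusted p = 0.0427). B2M was not called without siGATA1-2 replicate 4. APOC1 was lost in 10 of the 12 fits that left out 1 library, and kept without siGATA1-2 replicate 2 or siNC-2 replicate 7. HSPA9, the mitochondrial chaperone mortalin, was the 1 gene called of 17 heat shock chaperones (-0.99, adjusted p = 0.0149) and was lost without siGATA1-2 replicates 2 or 4 or siNC-2 replicate 7. CTSC, cathepsin C, was the 1 called of 23 lysosome genes (0.67, adjusted p = 0.00448), and was lost without siGATA1-2 replicate 4, at 0.43.

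The other GATA1 siRNA, siGATA1-1, was given at 25 nM, so siRNA and dose cannot be told apart between them. With only siGATA1-2 at 6.25 nM, effects of lower GATA1 and effects of this siRNA on other transcripts cannot be told apart either. GATA1 changed by -0.97 (SE 0.16) with siGATA1-1 against its own controls and by -1.19 (SE 0.18) with siGATA1-2, a difference of -0.22 with an SE of 0.23. A test of the difference between the 2 effects called 0 genes in edgeR, with 333 genes (4.94%) at an unadjusted p under 0.05 and a smallest adjusted p of 0.297, and DESeq2 and limma voom also called 0. HBZ, at -1.69 with siGATA1-2 and -0.86 with siGATA1-1, was among the genes with that smallest adjusted p. For FAM178B the values were -1.65 and -1.21, for KLF1 -1.59 and -1.27, for CD52 1.18 and 0.86, and for AIF1 2.26 and 1.27. Without siGATA1-2 replicate 2, 1 gene was called in this test.

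siGATA1-1 and its controls are different libraries, so its calls give a gene list that siGATA1-2 did not choose, although the spread was estimated over all 24 libraries together. It had 26 genes called higher and 22 called lower beside GATA1. For each library at 6.25 nM, log2 CPM was set against the controls at 6.25 nM and the median taken over those genes. Over the 26 genes the medians were 1.10, 0.83, 1.05 and 1.36 in siGATA1-2 replicates 1 to 4, with 26 of 26 genes positive in each, and -0.12 to 0.17 in the 8 controls. Over the 22 genes they were -1.09, -0.65, -1.19 and -1.29, with 21, 21, 22 and 22 genes negative, and -0.17 to 0.17 in the controls. All 4 siGATA1-2 libraries lay outside the controls on both lists. Replicate 2 was the closest to the controls and replicate 4 the farthest, on both.

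**Figure D4:**
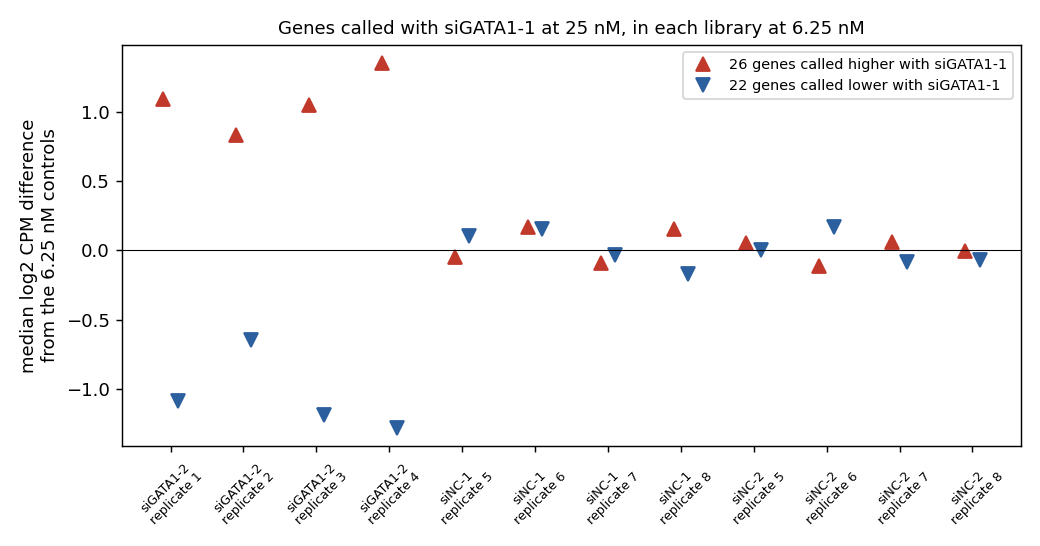
Median difference in log2 CPM from the controls at 6.25 nM (y axis) in each of the 12 libraries (x axis), over the 26 genes called higher (red, upward) and the 22 called lower (blue, downward) with siGATA1-1 at 25 nM, GATA1 left out. The 4 siGATA1-2 libraries lie at 0.83 to 1.36 and at -1.29 to -0.65, and the controls between -0.17 and 0.17.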

How the data were processed

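For K562 libraries the authors deposited raw counts of reads by gene symbol, without normalization. Alignment was by STAR 2.5.6b to hg19, per the submitters' processing notes. Annotation, counter, strandedness and collapse of molecular identifiers are not given in these sources. Counting intervals cover counting error only. The series' design text calls the 4 libraries of each siRNA biological replicates. Whether these were separate cultures is not given, so p-values measure the spread between libraries, which may be technical.

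The members and gene lists were chosen with earlier results of these data known. All 24 libraries in 6 groups were fitted with edgeR 4.0.16 in R 4.3.3 (robust quasi-likelihood, TMM scaling, filterByExpr with a minimum count of 10 and a minimum total of 15), and siGATA1-2 was set against the mean of siNC-1 and siNC-2 at 6.25 nM. Of 27311 symbols, 6738 passed, with 93.7% of counts. Symbols turned into dates (27, with 0.123% of counts) were not named. Named were GATA1, and, among called genes with a mean of at least 5 counts, the 12 largest rises and falls, the 5 lowest adjusted p and the 5 highest mean CPM in each direction. Also named were up to 4 called members of each list with the lowest adjusted p, and in a list with none called the member with the highest mean CPM. DESeq2 1.42.0 and limma 3.58.1 (voom), other scalings, filters and controls, and leaving out each library, were alternatives. Counts of any 2 replicates of a group differed by more than sampling noise (a chi-square of at least 2.44 per degree of freedom). The script was tested on simulated data. Some genes that the naming rule selects are not reported here.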

Additional observations from a re-analysis of the deposited data

Results flagged for a closer look

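In groups of 4 libraries, 282 groups (93 named genes and the total count, in each of 3 siRNA groups) were examined for 1 library far from the other 3 by Dixon's criterion at 95%, and 19 (6.74%) had one. Such a gap is passed by chance in about 5% of groups. No explanation of any of these was tested.

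In the siGATA1-2 group, replicate 2 stood apart for PARD3 (14.5 CPM, the others at 0), PRR3 (38.7 CPM), MRPL38 (72.6 CPM) and, as the lowest, CISH (227 CPM). Replicate 3 stood apart for LTBP3 (375 CPM), and replicate 4 for ESPN (11.4 CPM, the others at 0) and TMSB10 (4784 CPM).

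In the siNC-1 group, the library that stood apart was replicate 5 for ATIC (258 CPM), replicate 6 for ATG16L2 (30.2 CPM), replicate 7 for ESPN (53.7 CPM) and, as the lowest, CDKN1C (183 CPM), and replicate 8 for TNRC6B (144 CPM). In the siNC-2 group it was replicate 5 for LTBP3 (78.9 CPM), replicate 6 for TMSB10 (2847 CPM), HBE1 (3602 CPM) and ALAS2 (641 CPM), and replicate 7 for NIP7 (104 CPM), LAPTM5 (669 CPM) and, as the lowest, AIF1 (0 CPM).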

How the results depend on the processing

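The counts of 118 genes higher and 86 lower became 75 and 54 with only the 12 libraries at 6.25 nM in the fit, and 51 and 48 with siNC-1 alone as the control. With siNC-2 alone, 70 were higher and 74 lower. Leaving out each library gave 63 to 153 higher and 55 to 156 lower. Of the 79 called genes that are named, 38 were called in every alternative. The fall of GATA1 was called in all 23 alternatives. Without siNC-2 replicate 8, 1 gene was called between the 2 controls (0 to 1 over libraries left out), and the difference from siGATA1-1 ranged from 0 to 1 genes. Signs reversed for genes that were not called: BCL2L1 (-0.059) and SQSTM1 (0.053) with all 16 controls, CALR (0.015), CD3D (-0.063) and ITGA2B (-0.25) with siNC-2 alone, and JUND (-0.068) without siGATA1-2 replicate 4 (up to 0.19 without siGATA1-2 replicate 1). The cause was not tested. siNC-1 against siNC-2 with a replicate block called 0 genes, as without it. No paired analysis was possible for siGATA1-2 because its replicate numbers (1 to 4) and those of its controls (5 to 8) do not overlap. Depth limits what can be seen in genes of few counts.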

Other observations

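Other called genes that separated the groups in all 12 libraries lay outside the lists described above. The 10 with the lowest adjusted p in edgeR's quasi-likelihood test, picked after their values were seen, held 8 that were higher and 2 that were lower, and each kept its call when any 1 of the 12 libraries was left out. GMFG, an actin regulator of blood cells, had 259, 203, 281 and 233 CPM with siGATA1-2 and 31.8 to 126 CPM in the controls (log2 fold change 1.64, adjusted p = 2.05e-06). TGFB1, which encodes the cytokine TGF-beta 1, had 1529, 1307, 2345 and 1879 CPM against 923 to 1186 CPM (0.73, adjusted p = 8.95e-06). VSIR, an immune checkpoint receptor of myeloid and T cells, had 218, 131, 62.5 and 204 CPM against 18.1 to 62 CPM (1.85, adjusted p = 2.19e-05), with replicate 3 just above the highest control.

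CFD, complement factor D, changed by 1.14 (adjusted p = 0.000133), CELF2, an RNA-binding splicing factor, by 1.34 (adjusted p = 2.08e-05), and PITX1, a homeobox transcription factor, by 1.09 (adjusted p = 5.3e-06). TMEM158 changed by 1.82 (adjusted p = 3.97e-05) and MAP1A, a microtubule-associated protein, by 1.68 (adjusted p = 0.000144). RNASE1, a secreted ribonuclease, had 162, 213, 177 and 216 CPM against 311 to 629 CPM (-1.26, adjusted p = 5.54e-06), and ANP32B, a histone chaperone, had 857, 1021, 865 and 641 CPM against 1178 to 1696 CPM (-0.70, adjusted p = 0.000103).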
